A study of Vitis vinifera with 16 samples.

Results

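The 80 transcripts described here were chosen by their own RPKM values (reads mapped to a transcript, scaled to its length and to the size of the library) as transcripts whose level in grape berries was several times higher at harvest than at the onset of ripening or in green berries. They are 80 of the 23984 transcripts in the table. The rule asked for a mean of at least 10 RPKM over the 4 samples of E-L38, for a mean plus 1 at least 3 times that of E-L35 and at least 3 times that of E-L31, for an E-L35 mean plus 1 under 4 times that of E-L31, and for a mean under 1000 RPKM over all 16 samples. The E-L31 mean was taken over 3 samples, without the 2011 Gaotai sample. The differences between E-L31, E-L35 and E-L38 are therefore a description and were not tested. E-L36 and the 2011 Gaotai sample of E-L31 played no part in the selection, apart from the ceiling on the mean. No difference between regions or vintages was a criterion, but the E-L35 and E-L38 values of both regions and both vintages entered the means. With the samples of Gaotai alone the rule gave 111 transcripts, of which 52 were among the 80, and with those of Changli alone 89, of which 54 were.

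The study followed berries of the grapevine Vitis vinifera cultivar Muscat Blanc à Petits Grains, an aromatic white grape, in Gaotai (GT) and in Changli (CL), China, at 4 stages in the vintages 2010 and 2011. The stages were E-L31 (pea-sized green berries), E-L35 (the onset of ripening), E-L36 (berries of intermediate sugar) and E-L38 (harvest). The same vineyard of each region was sampled in both vintages, and the GT vines were the older, so region, vineyard and vine age cannot be told apart. Each sample was a pool of deseeded berries, and E-L35 and E-L38 samples had 2 libraries each, against 1 at E-L31 and E-L36.

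Ripening of the grape berry begins when the berry softens, sugars flow into the flesh and organic acids decline. The grape is a non-climacteric fruit, in which abscisic acid rather than a burst of ethylene is tied to the start of ripening. Transcripts that reach high levels only near harvest belong to the final phase, when sugar, aroma compounds and cell wall changes reach their ripe state.

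The 24 libraries held 3798921 to 22917077 counts. Of the 80 IDs, 57 matched 57 genes of the RefSeq assembly ASM3070453v1, all under a LOC symbol without a descriptive name, so no role is given for any of them, and no list of ripening pathways could be counted. The marker lists for seed, green tissue, and flesh and skin matched 0 named transcripts, so the tissue label was not checked. Some libraries stood apart. Over all transcripts, library 1 of the 2010 GT sample and library 1 of the 2011 GT sample of E-L38 differed by 2.37 times the variance that counting gives, the least of all 276 pairs, against 11 times between the 2 libraries of the 2011 sample and 26.2 times between those of the 2010 sample (3.55 times in the closest pair of libraries of 1 sample). By the correlation of log2(CPM + 1) they were also nearest to each other (r = 0.987), though 2 pairs of libraries of 1 sample had a higher r (0.990 and 0.989). Because they differed by more than counting noise they were kept as separate libraries. Whether they are independent samples of 2 vintages was not tested, and the spread between the GT samples of E-L38 rests on it. Library 2 of the 2010 GT sample of E-L38 was nearest by r to a CL library, library 1 of the 2010 CL sample of E-L38 (r = 0.983, against 0.959 with library 1 of its own sample), and values without library 1 rest on it. Several counts and log2 ratios that rest on the first libraries are given with and without them, and the others only with them. The single library of 2010 GT at E-L36 was nearest by r to library 1 of 2011 CL at E-L38 (r = 0.976), and the 2011 GT sample of E-L31 to library 2 of 2010 GT at E-L35 (r = 0.968). The labels do not tie a library to a biological repeat, so the spread between the 2 samples of a group is that between 2 vintages.

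The median member had 3.22 RPKM at E-L31, 5.72 RPKM at E-L35, 14.8 RPKM at E-L36 and 34.3 RPKM at E-L38, and the E-L38 means ran from 10.2 to 1580.24 RPKM, with 16 members at 100 RPKM or more. In a bulk sample, more RNA per cell and more cells that hold the RNA cannot be told apart. The ratio of E-L38 to E-L35 on the selection scale ran from 3.01 to 21.7, with a median of 5.18. In 58 members all 4 samples of E-L38 were above all 4 samples of E-L35. The rule asked for a higher mean at E-L38, so this count is a description. No share over all transcripts is given beside it. As a group the members were a small part of the berry's RNA, with 0.0819 to 0.137% of the counts in the 3 E-L31 samples of the rule, 0.139 to 0.189% at E-L35, 0.311 to 0.481% at E-L36 and 0.662 to 0.965% at E-L38. The 5 members just inside the limit on E-L38 over E-L35 had ratios of 3.01 (XM_003631185.1), 3.02 (XM_002273775.2), 3.04 (XM_002262959.2), 3.06 (XM_002279942.1) and 3.14 (XM_003633105.1). The 5 transcripts just outside it ran from 2.83 (XM_002283022.2) to 2.91 (XM_003632142.1).

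**Figure D1:**
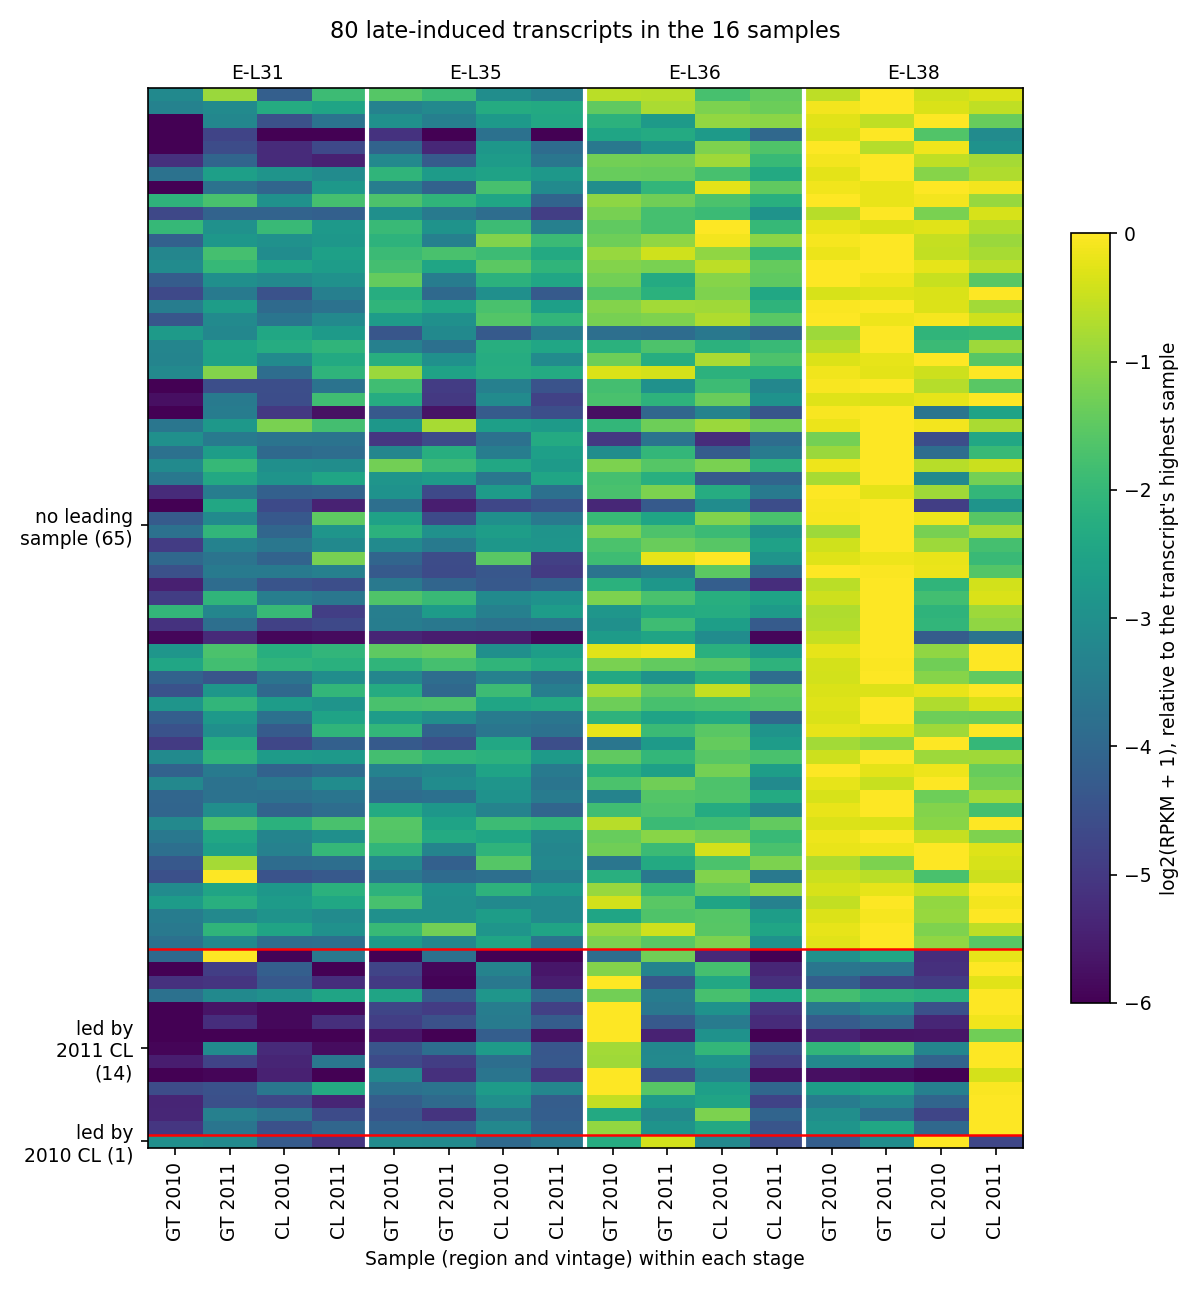
Each row is 1 of the 80 members and each column 1 of the 16 samples. Brighter colour is a higher log2(RPKM + 1) relative to the member's highest sample. The scale ends at 6 below the highest sample. Most rows are brightest in the E-L38 columns, and in the block of 14 rows near the bottom the 2011 CL column of E-L38 and, in most of them, the 2010 GT column of E-L36 are bright.

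The most abundant member per length was XM_003632143.1. It had 1304 and 1976 RPKM in GT and 1474 and 1567 RPKM in CL at E-L38 (2010 and 2011 in each pair), and it already had 1289 and 1266 RPKM in GT and 590 and 730 RPKM in CL at E-L36. Only 0.0457% of its reads were unique to it, so its level depends on how reads shared with near-identical transcripts were divided. XM_002282177.1 (LOC100259078), the next by level, drew 100% unique reads. At E-L31 it had 101 and 118 RPKM in GT and 208 and 181 RPKM in CL, and at E-L35 101 and 113 RPKM in GT and 209 and 201 RPKM in CL. At E-L36 it had 371 and 608 RPKM in GT and 450 and 404 RPKM in CL, and at E-L38 951 and 1031 RPKM in GT and 813 and 692 RPKM in CL. It was thus level across the first 2 stages in each region and lower in GT than in CL there, and both GT samples were above both CL samples at harvest.

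Some abundant members rest on shared reads. XM_002265274.1 (LOC100253660; 8.36% unique reads) had 868 and 700.1 RPKM in GT and 1040 and 396 RPKM in CL at E-L38. XM_003634470.1 (0.225% unique reads) had 92.4 and 207 RPKM in GT and 1734 and 64.4 RPKM in CL, and the 2 libraries of its high 2010 CL sample held 3064 and 404 RPKM, so its place among the members rests on that sample. Its E-L36 values, 352 and 1295 RPKM in GT and 192 and 70.7 RPKM in CL, were spread as widely.

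Other abundant members began from far lower levels. XM_002265911.1 (LOC100260266; 12.1% unique reads) had 11.6 and 1.93 RPKM in GT and 31.1 and 1.79 RPKM in CL at E-L35, and 337 and 436 RPKM in GT and 141 and 49.4 RPKM in CL at E-L38. XM_002275770.1 (LOC100247907; 100% unique reads) had 204 and 218 RPKM in GT and 147 and 124 RPKM in CL at E-L38. XM_003631572.1 had the highest ratio, 21.7. It lay under 0.5 RPKM in every E-L35 sample, at 8.12 and 9.57 RPKM in GT and 6.01 and 0 RPKM in CL at E-L36, and at 40.7 and 58.8 RPKM in GT and 2.15 and 3.52 RPKM in CL at E-L38, so its high harvest level was that of the GT samples. In contrast, XM_002282074.1 was nearly the same in every E-L38 sample, with 147 and 140 RPKM in GT and 162 and 151 RPKM in CL.

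**Figure D2:**
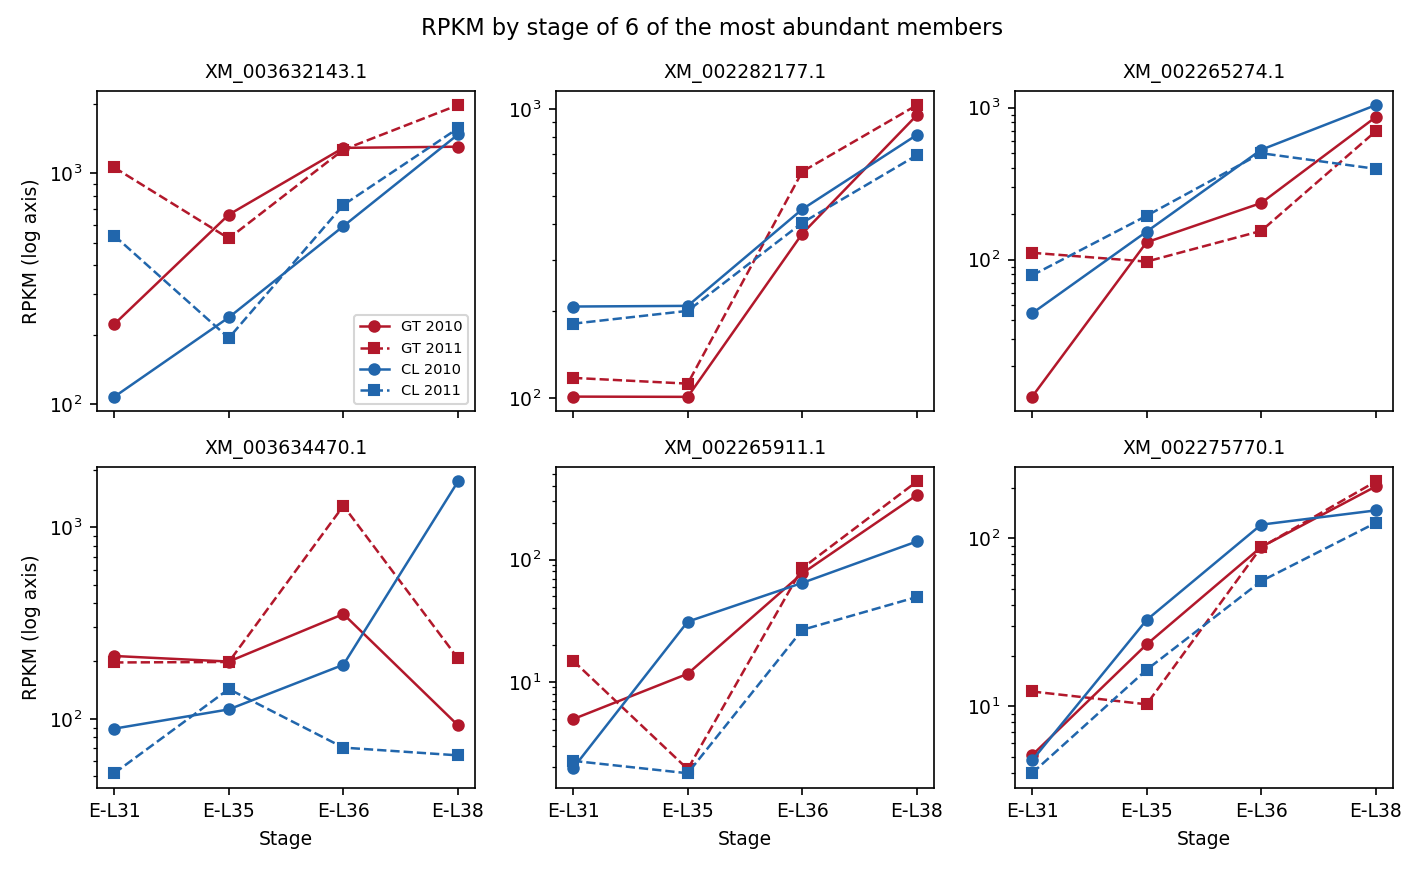
RPKM of 6 of the most abundant members by sample on a log axis, with stages in order from E-L31 to E-L38. Lines join the 4 stages of each region and vintage. XM_002282177.1 stays between 101 and 209 RPKM through E-L35 and reaches 692 to 1031 RPKM at E-L38.

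E-L36 entered the choice of members only through the ceiling on the mean. Its position depends on the E-L35 and E-L38 means, which chose the members, so it is a description. By the difference in RPKM, E-L36 lay closer to E-L35 than to E-L38 in most members. The E-L36 mean lay between the means of E-L35 and E-L38 in 71 members, above E-L38 in 6 and below E-L35 in 3. The median member had covered 28.9% of the difference between E-L35 and E-L38 by E-L36 (quartiles 18.8 and 44.6%), and 66 members had covered under 50%. The median ratio was 2.29 for E-L36 over E-L35 and 2.23 for E-L38 over E-L36, so by ratio the 2 steps were of like size. The share covered differed between samples: 24.9% in GT 2010, 23.9% in GT 2011, 39.8% in CL 2010 and 12.9% in CL 2011. E-L36 was above E-L35 in 77 members in GT in either vintage, and in 76 members in CL 2010 and 54 members in CL 2011. CL 2011 thus stood apart as the sample in which E-L36 was nearest to the onset of ripening. Over all transcripts, its single E-L36 library was nearest by r to an E-L35 library, library 2 of 2010 CL (r = 0.969). The low share covered in CL 2011 may thus not be particular to the members, and the part of that likeness was not tested.

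The 3 members with E-L36 below E-L35 were XM_002284085.2 (LOC100259648), XM_002283501.2 (LOC100249745) and XM_002280226.2 (LOC100249186), all with 100% unique reads. XM_002284085.2 had 10.6 and 10.01 RPKM in GT and 12.5 and 9.17 RPKM in CL at E-L36, and 86.7 and 161 RPKM in GT and 37.5 and 39.5 RPKM in CL at E-L38. Its 4 samples of E-L36 lay close together, whereas at harvest both GT samples were above both CL samples. XM_002283501.2 had 2.82 and 8.5 RPKM in GT and 2.25 and 7.53 RPKM in CL at E-L36, and 50.7 and 122 RPKM in GT and 4.16 and 22 RPKM in CL at E-L38, and the 2010 GT value is the mean of 94.7 and 6.75 RPKM in its 2 libraries.

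A set of 14 members rested on 1 sample. In each of them the 2011 CL sample of E-L38 was at least 3 times the next of the 4 harvest samples on RPKM + 1, by 3.26 to 41.3 times on that scale, whereas 1 member (XM_003634470.1) was led in this way by the 2010 CL sample and the other 65 by none. The median of the 14 at E-L38 was 6.60 RPKM in GT 2010, 7.01 RPKM in GT 2011, 3.44 RPKM in CL 2010 and 82.1 RPKM in CL 2011. The median of the other 66 members was 46.1 RPKM in GT 2010, 55.8 RPKM in GT 2011, 26.1 RPKM in CL 2010 and 26.4 RPKM in CL 2011. XM_002274749.2 (LOC100246525) had 19.9 and 13.0 RPKM in GT and 11.4 and 322 RPKM in CL at E-L38, and the 2 libraries of the 2011 CL sample held 317 and 328 RPKM. XM_002275344.2 had 0.494 and 0.414 RPKM in GT and 0.281 and 60.7 RPKM in CL.

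The same 14 members had another peak that the rule did not use, in the 2010 GT sample of E-L36. It was the highest E-L36 sample in 12 of the 14, and in 19 of the other 66. The median of the 14 at E-L36 was 42.4 RPKM in GT 2010, 6.45 RPKM in GT 2011, 11.7 RPKM in CL 2010 and 1.90 RPKM in CL 2011, while that of the others was 14.1 RPKM in GT 2010, 11.9 RPKM in GT 2011, 12.9 RPKM in CL 2010 and 7.67 RPKM in CL 2011. At E-L36, XM_002274749.2 had 388 and 17.3 RPKM in GT and 72.9 and 9.78 RPKM in CL. XM_002283363.2 (LOC100244918) had 122 and 5.17 RPKM in GT and 9.95 and 2.19 RPKM in CL at E-L36, and 5.38 and 6.62 RPKM in GT and 2.02 and 112 RPKM in CL at E-L38. The sample with the highest level thus differed between the 2 stages, and these were the 2 samples whose libraries were near each other over all transcripts. The part of that likeness in this result was not tested. The 6 members with an E-L36 mean above the E-L38 mean all belonged to the 14.

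**Figure D3:**
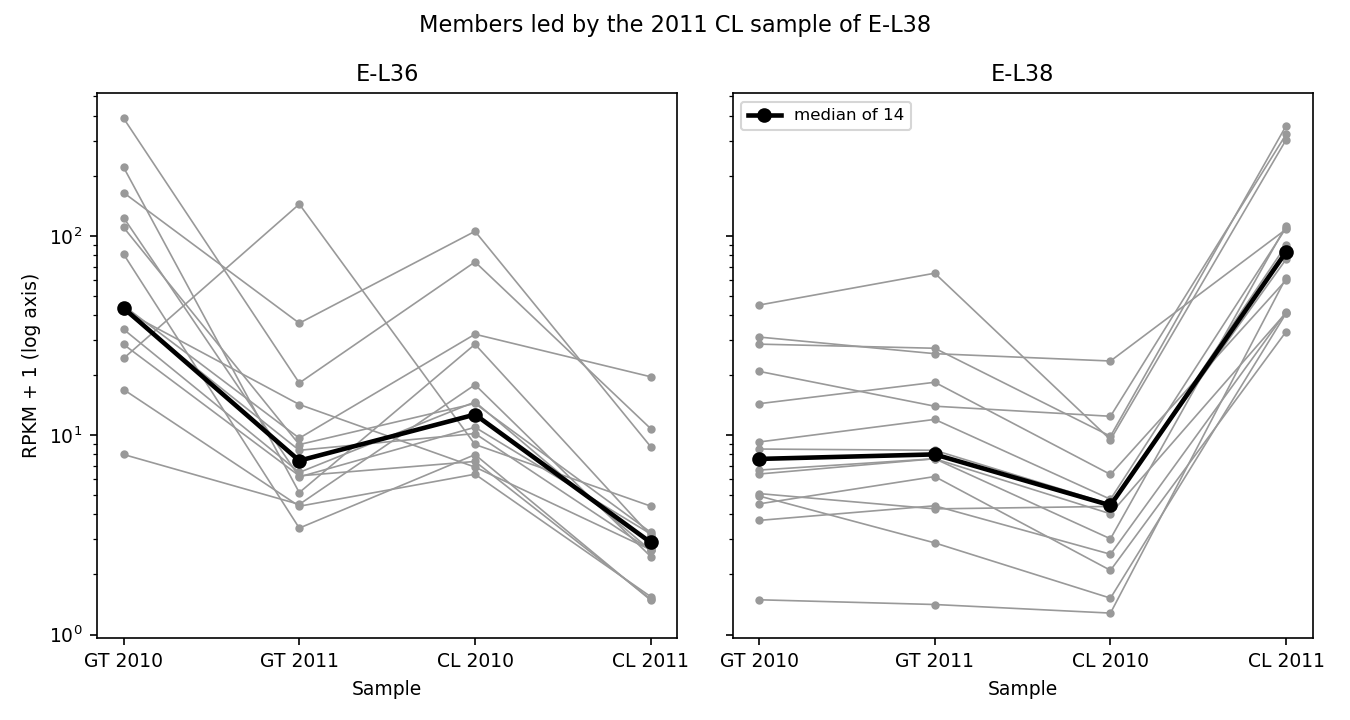
RPKM + 1 on a log axis for the 14 members led by the 2011 CL sample, at E-L36 (left) and E-L38 (right). Thin lines are members and the thick line is their median, 42.4 RPKM in GT 2010 at E-L36 and 82.1 RPKM in CL 2011 at E-L38.

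Several of the 14 lie close together in the genome. By the order of genes in ASM3070453v1, 13 of the 57 placed members fell into 5 groups of near neighbours, and 8 of these 13 were among the 14. LOC100244918, LOC100248431, LOC100263839 and LOC100246695 formed a group of 4 with 3 other genes between its ends, LOC100244758 and LOC100246525 a pair with 4 genes between, and LOC100254045 and LOC100253166 a pair with 8 genes between. Near neighbours can be copies that share reads, and 9 of the 14 had at least 80% unique reads (lowest 36.3%). Without the 2011 CL sample of E-L38 the rule gave 78 transcripts, which shared 63 with the 80, and all 14 were lost.

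The libraries of the GT harvest samples differed for a smaller set. In 14 members of the 2010 GT sample and in 8 of the 2011 GT sample, library 1 was at least 3 times library 2 on RPKM + 1. Both libraries entered the means that chose the members, so these counts are a description. The reverse counts and the shares over all transcripts are not given. Over all transcripts the libraries differed by 26.2 times the variance that counting gives in the 2010 sample and by 11 times in the 2011 sample. XM_002284411.2 had 183 and 5.35 RPKM in libraries 1 and 2 of the 2010 GT sample and 188 and 7.20 RPKM in those of the 2011 GT sample. XM_002284418.2 had 133 and 3.82 RPKM and 134 and 7.32 RPKM in the same libraries. In these 2 members both first libraries were at least 3 times every other harvest library, so their high GT level is that of library 1 alone. Without library 1 of the 2010 GT sample the rule gave 70 transcripts, of which 68 were among the 80. Without that of the 2011 GT sample it gave 78, of which 77 were, and without both it gave 66, of which 64 were.

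**Figure D4:**
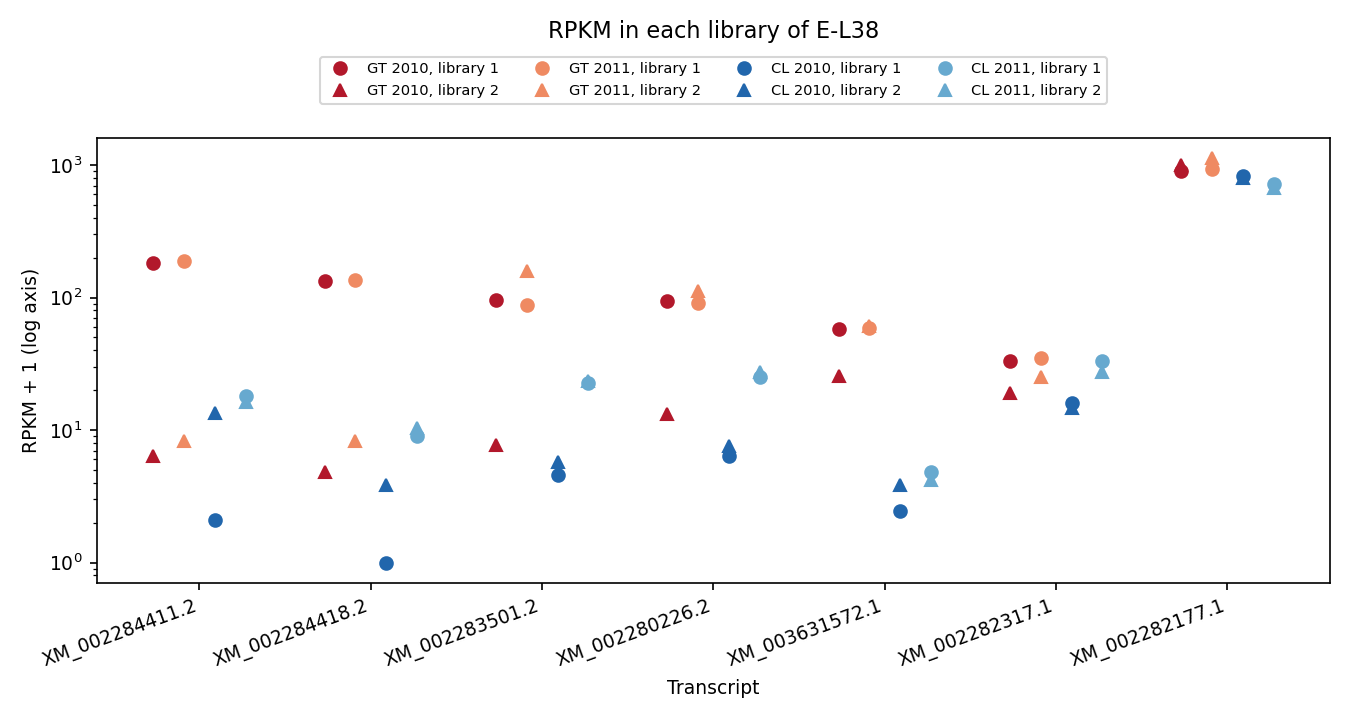
RPKM + 1 of 7 members in the single libraries of E-L38 on a log axis. Circles are library 1 and triangles library 2, coloured by region and vintage. XM_002284411.2 and XM_002284418.2 lie above 130 RPKM in library 1 of both GT samples and under 10 RPKM in library 2.

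At harvest more members were higher in GT than in CL than the reverse, though edgeR's quasi-likelihood test with Benjamini-Hochberg adjustment over 18958 transcripts called no member (adjusted p of at most 0.05 and at least 1 on the log2 scale; 0.00527% of all transcripts tested were called). The median log2 ratio of GT to CL over the members was 0.42 (56 of 80 above 0), against -0.06 over all transcripts. The E-L38 values of this comparison also chose the members, which can pass through 1 region alone, so the balance is a description. It was 0.39 and 0.46 without library 1 of the 2010 and of the 2011 GT sample, and 0.40 without both. Both GT samples were above both CL samples in 34 members (16% of all transcripts tested) and both CL samples above both GT samples in 4 (26.5%), namely XM_002282074.1, XM_003634520.1, XM_002285420.1 and XM_002269832.2. Without library 1 of both GT samples these counts were 21 (7.48%) and 5 (27.9%). At an unadjusted p under 0.05 there were 14 members (10.5% of all), 12 higher and 2 lower in GT, and DESeq2 called 4 (0.992%).

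The 4 members that DESeq2 called at E-L38 were XM_002284085.2, XM_002284411.2, XM_002280226.2 and XM_002283501.2, all higher in GT, and edgeR gave adjusted p-values above 0.05 for each with Benjamini-Hochberg adjustment. The edgeR log2 ratio was 1.71 for XM_002284085.2 (adjusted p = 0.279) and 1.47 without library 1 of the 2010 GT sample, whose 2 libraries held 131 and 42.5 RPKM. For XM_002280226.2 it was 2.34, and 1.95 without that library (93.9 RPKM, against 12.3 RPKM in library 2). For XM_002283501.2 it was 2.76, and 2.39 without it. Library 2 of the 2010 GT sample alone was below the 2011 CL sample in XM_002280226.2 and XM_002283501.2, and above both CL samples in XM_002284085.2. XM_003631572.1 had the lowest edgeR p of the members, with a log2 ratio of 4.16 ± 0.967 (SE, 2 samples per region; adjusted p = 0.215). Both CL samples of XM_003631572.1 were under the 10 RPKM that the rule asked for, so this member was chosen through its GT values. The E-L38 values of the other members named here also chose them, so these region ratios are a description. XM_002268368.2 (LOC100251100), with 41.7 and 40.7 RPKM in GT and 36.6 and 13.1 RPKM in CL, differed between the regions less than between the CL samples.

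In the edgeR fit the members' median was smaller at E-L36 than at E-L38, and it was below 0 at E-L35. At E-L36 the members' median log2 ratio of GT to CL was 0.33 (47 of 80 above 0), against 0.01 over all transcripts, and it was -0.12 without the 2011 CL sample of E-L36 and 1.19 without the 2010 one. edgeR called 0 members there (0.0264% of all transcripts), 13 had an unadjusted p under 0.05 (13.2%), and DESeq2 called 4 (1.60%). At E-L35 the median was -0.16 (31 of 80 above 0), against 0.01 over all, and 0.33 without the 2010 CL sample of E-L35, with 0 members called by edgeR (0.0211%), 13 at an unadjusted p under 0.05 (15%) and 4 called by DESeq2 (1.67%). Both GT samples lay above both CL samples in 22 members at E-L36 (21.4%) and 18 at E-L35 (42.2%), and both CL samples above both GT samples in 7 at E-L36 (14.8%) and 16 at E-L35 (13.5%). These counts are of RPKM, on which the median of all transcripts at E-L35 was 0.16 on the log2 scale above 0, a shift that the scaling of the edgeR test removed. The E-L35 values also chose the members, so the balance at E-L35 is a description.

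**Figure D5:**
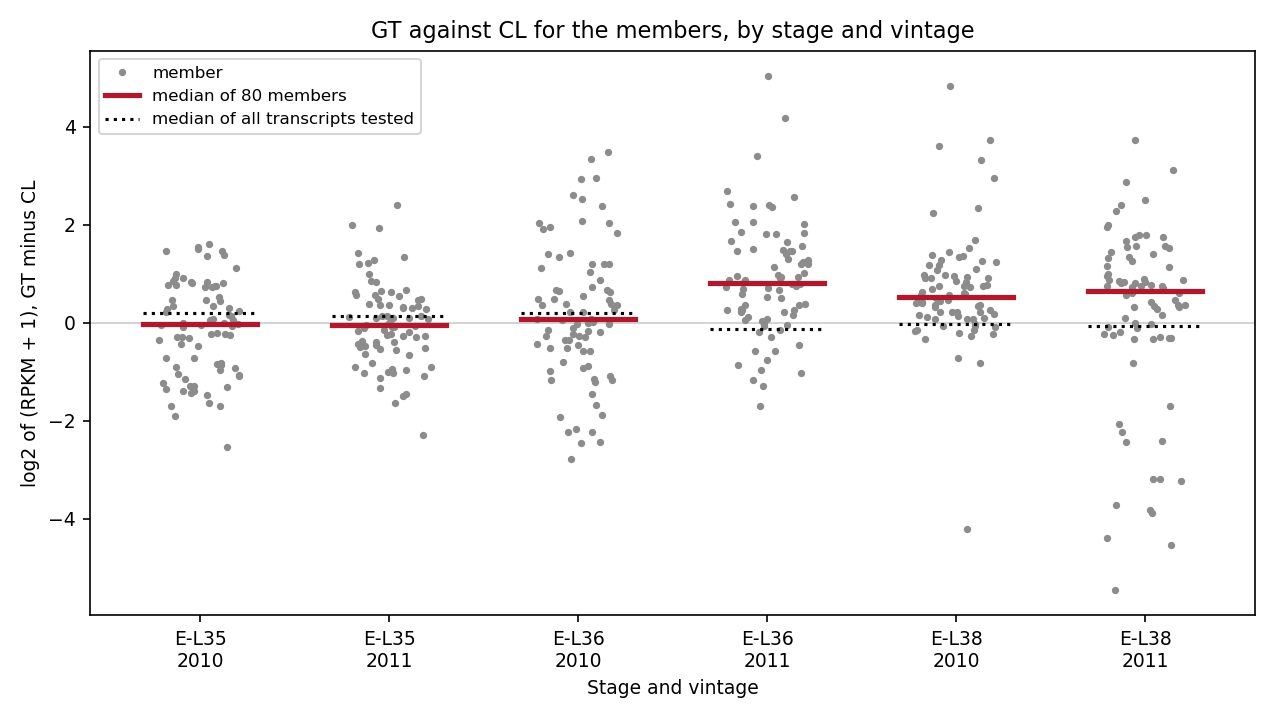
Difference of log2(RPKM + 1), GT minus CL, for each member (points) at each ripening stage and vintage, with the members' median (solid line) and that of all transcripts tested (dotted line). The members' median is 0.53 in 2010 and 0.66 in 2011 at E-L38.

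Within single vintages, the median difference of GT minus CL in log2(RPKM + 1) at E-L38 was 0.53 in 2010 (66 members above 0) and 0.66 in 2011 (53 members above 0), against -0.03 in 2010 and -0.07 in 2011 over all transcripts. At E-L36 it was 0.07 in 2010 and 0.81 in 2011, against 0.19 in 2010 and -0.12 in 2011 over all transcripts, so the members lay above all transcripts in 2011 only. The 2011 difference rests on the CL library of E-L36 that was nearest to an E-L35 library. The 14 members led by CL 2011 had the 14 lowest differences of the 2011 harvest, where the definition of the set itself asks for a low difference.

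The change of the region difference from E-L35 to E-L38 had a median of 0.40 on the log2 scale over the members (50 of 80 above 0), against -0.07 over all transcripts, and it was -0.23 without the 2010 CL sample of E-L35. edgeR called 0 members for it (0.0158%), 13 had an unadjusted p under 0.05 (11.7%), 12 of them with a higher ratio at E-L38, and DESeq2 called 4 (1.91%). The E-L35 and E-L38 values of this comparison also chose the members, which can pass through 1 region alone. The balance, the counts and the values of single members below are therefore a description. XM_002284848.2 (LOC100267586) had 11.7 and 8.70 RPKM in GT and 27.2 and 23.4 RPKM in CL at E-L35, and 85.0 and 133 RPKM in GT and 34.5 and 71.8 RPKM in CL at E-L38. CL was above GT at E-L35 and GT above CL at E-L38, with a change of 2.60 on the log2 scale (edgeR, Benjamini-Hochberg adjusted p = 0.142; called by DESeq2). The 2010 GT value at E-L38 is the mean of 121 and 49.05 RPKM, and with library 2 alone the regions overlapped at E-L38 and the change was 2.39. XM_002282177.1 had the same order of regions, with a change of 1.57 (edgeR, Benjamini-Hochberg adjusted p = 0.195; called by DESeq2) and of 1.65 without library 1 of the 2010 GT sample. Members with CL above GT at E-L35 and GT above CL at E-L38 numbered 6, and such transcripts were 366 of all those tested.

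Averaged over the 3 ripening stages, 1 member passed the edgeR test for region. XM_002282317.1 (LOC100252431; 100% unique reads) was higher in GT by 1.29 ± 0.196 on the log2 scale (SE; edgeR, Benjamini-Hochberg adjusted p = 0.0308), where 0.227% of all transcripts were called. It had 9.78 and 10.6 RPKM in GT and 2.80 and 3.79 RPKM in CL at E-L35, and 24.0 and 25.8 RPKM in GT and 5.66 and 3.55 RPKM in CL at E-L36. At E-L38 it had 25 and 29.2 RPKM in GT and 14.4 and 29.4 RPKM in CL, so the regions overlapped at harvest, and GT had reached its harvest level by E-L36. The call was lost without library 1 of the 2010 GT sample of E-L38 (edgeR, log2 ratio 1.24, Benjamini-Hochberg adjusted p = 0.0784). When each of the 12 ripening samples was left out in turn it held in 3 fits, those without CL 2010 or GT 2011 at E-L36 or CL 2011 at E-L38, with edgeR Benjamini-Hochberg adjusted p-values from 0.0162 to 0.13 and log2 ratios from 1.16 to 1.49 over the 12. With the vintage as a replicate block, 2 members were called, XM_002282317.1 and XM_002280226.2 at 1.35 (edgeR, Benjamini-Hochberg adjusted p = 0.0352 for both), and XM_002280226.2 was at 1.24 in the fit without the block and without library 1 of the 2010 GT sample of E-L38. Of the members, 21 had an unadjusted p under 0.05 (19.4% of all), 16 higher and 5 lower in GT, and DESeq2 called 9 (1.65%). The E-L35 and E-L38 values in this average also chose the members.

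Between vintages, the median member was lower in 2011 than in 2010 at E-L35 and E-L36 and higher at E-L31 and E-L38. The median of 2011 minus 2010 in log2(RPKM + 1) was -0.44 in GT and -0.54 in CL at E-L35, and -0.29 in GT and -1.02 in CL at E-L36, whereas it was 0.16 in GT and 0.35 in CL at E-L38. At E-L31 it was 1.13 in GT, where the 2011 sample stood apart, and 0.17 in CL. Over all transcripts the medians at the 3 ripening stages ran from -0.12 (GT at E-L36) to 0.19 (CL at E-L36). In the 12 ripening samples together, edgeR gave a median log2 ratio of -0.45 (19 of 80 above 0), against 0.00 over all transcripts, and it was -0.15 in a fit of all 16 samples. It called 0 members (0.00544% of 18378 transcripts), 25 had an unadjusted p under 0.05 (10.4%), of which 4 were higher and 21 lower in 2011, and DESeq2 called 4 (0.316%). Selection used the E-L35 and E-L38 values of both vintages, and a member can pass through a single vintage. The vintage balance, the counts and the values of single members below are therefore a description. In 2 members, XM_002283501.2 and XM_002280226.2, the 2011 sample was the higher in 6 of 6 pairs of region and stage (4.77% of all transcripts), and in 3 it was the lower in 6 of 6 (1.56%).

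Those 2 were the only members that DESeq2 called as higher in 2011, and edgeR called neither. XM_002283501.2 was higher in 2011 by 1.5 ± 0.208 on the log2 scale (SE; edgeR, Benjamini-Hochberg adjusted p = 0.111; called by DESeq2), and by 1.94 without library 1 of the 2010 GT sample of E-L38. XM_002280226.2 had 101 RPKM in GT and 25.2 RPKM in CL in 2011 at E-L38, against 53.1 RPKM in GT and 5.96 RPKM in CL in 2010, and was higher in 2011 by 1.12 over the ripening samples (edgeR, Benjamini-Hochberg adjusted p = 0.132; called by DESeq2) and by 1.44 without that library. DESeq2 also called XM_003633533.1 and XM_002285421.2, both lower in 2011. The 3 members lower in 2011 in every pair were XM_002273794.2, XM_003634107.1 and XM_002262775.1. XM_002262775.1 had 121 RPKM in GT and 44.8 RPKM in CL in 2011 at E-L38, against 132 RPKM in GT and 93.2 RPKM in CL in 2010.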

How the data were processed

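Deseeded berries of 16 samples (2 regions, 4 stages, 2 vintages) were sequenced as strand-specific libraries on an Illumina HiSeq2000. The authors mapped reads to RefSeq mRNAs with CLC Genomics Workbench, allowing 2 mismatches and 10 hits, and divided a read with several hits among them by their unique reads. They deposited, per library, the counts of each transcript (total and unique), its RPKM and its length. RPKM of a sample with 2 libraries was their mean, and its counts were their sum. The transcripts and lists were chosen with earlier results of these data known.

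Counts were tested with edgeR 4.0.16 (quasi-likelihood, TMM) in R 4.3.3 on 15 samples in 8 groups of region and stage, without the 2011 GT sample of E-L31, which stood apart from its group. A transcript needed at least 10 counts in at least 2 samples. p-values were two-sided and were adjusted (Benjamini-Hochberg) over all 18958 transcripts. The vintage fit used 12 ripening samples, with group and vintage as terms. Named members were taken from the 15 with the highest E-L38 mean, the 10 with the highest ratio of E-L38 to E-L35, the called members and the 5 on either side of that limit, and others were named after their values were seen. 2 vintages are not repeats of 1 year, and p-values measure that spread. The test was tried on simulated counts. GT and CL samples of 1 vintage deviated together (the lowest of the 4 correlations of deviations from group means was 0.107, at E-L36, and the highest 0.293, in green berries), so the vintage block is given where it changed a call. Alternatives were DESeq2, other scalings and filters, limma on log2(RPKM + 1), single libraries, all 16 samples, and leaving out each sample.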

Additional observations from a re-analysis of the deposited data

Results flagged for a closer look

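The 2011 GT sample of E-L31 entered the rule only through the ceiling on the mean. It entered the tests only in the fits of all 16 samples. It held some members at levels far above the other E-L31 samples. XM_002280424.2 had 352 RPKM in it, against 21.8 RPKM in the 2010 GT sample and 4.75 and 28.4 RPKM in CL. XM_002274421.1 had 22 RPKM in it, against 0 to 0.148 RPKM in the other 3, and its harvest mean was 12.8 RPKM. In 45 members this sample was above the other 3, as it was in 22.7% of all transcripts tested. The rule asked for a low mean of those 3 samples relative to E-L38 and left this sample out. The count and the values of the members named here are therefore a description.

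In 3 members the vintages moved opposite ways in the regions, with every ripening stage higher in 2011 in GT and lower in 2011 in CL. On log2(RPKM + 1), averaged over 3 stages, the vintage difference in GT minus that in CL was 0.47 in XM_002282177.1, 0.85 in XM_002279942.1 and 1.34 in XM_002283312.1. The difference was not tested. In XM_002283501.2, E-L38 was above E-L35 in both GT vintages and below it in both CL vintages, a difference of 5.15 on the log2 scale (edgeR, Benjamini-Hochberg adjusted p = 0.188; called by DESeq2), and of 4.77 without library 1 of the 2010 GT sample of E-L38. The rule used the same E-L35 and E-L38 values, and XM_002283501.2 met its ratio through GT alone, so this difference is a description. Groups of 2 samples were not searched for a sample far from the others.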

How the results depend on the processing

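The rule gave 80 members, 48 from the 2010 samples alone (38 of them among the 80) and 148 from the 2011 samples alone (71 among the 80), 111 from GT alone (52) and 89 from CL alone (54), and 71 to 103 when 1 sample was left out. Members called for region at E-L38 numbered 0, against 4 with DESeq2 and 7 with single libraries as samples. At E-L36 they were 0, against 4 with DESeq2 and 1 with single libraries (0 to 1 on leaving out 1 sample), and at E-L35 0, against 4 and 10. Averaged over stages the count was 1, against 9 with DESeq2, 10 with single libraries, 0 with all 16 samples, 2 with limma on log2(RPKM + 1), 2 with the replicate block, 0 without library 1 of the 2010 GT sample and 0 without that of both GT samples (0 to 5 on leaving out 1 sample). The change from E-L35 to E-L38 had 0, against 4 with DESeq2 and 7 with single libraries, and the vintage 0, against 4 with each. The replicate block changed no other call. Libraries of 1 sample are not independent samples, so those counts are too high. The members' median log2 ratio of GT to CL stayed above 0 at E-L38 on leaving out 1 sample (0.39 to 0.64) and changed sign at E-L36 (-0.12 to 1.19), at E-L35 (-0.92 to 0.33), averaged (-0.13 to 0.41) and for the change (-0.23 to 1.09); the vintage median stayed below 0 (-0.60 to -0.25). The additional settings without library 1 of the GT samples were chosen after seeing the data.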
